A study of Mus musculus with 30 samples.

Results

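The comparison described here is Diphenyleneiodonium Cl (DPI) against its solvent, DMSO, in a primary mouse tail fibroblast line, read across 12954 genes. These are the genes, of 29861 in the deposited table, that reached a TPM of 1 (transcript abundance corrected for length and scaled to the library total) in at least 3 of the 9 libraries compared. The 9 libraries are 3 treated with DPI and 6 treated with DMSO, out of 30 in the series. The rule does not use the difference between the groups, but a gene can meet it through 1 group alone. For 264 genes fewer than 3 DMSO libraries reached 1 TPM, so these passed only with the help of the DPI libraries. Of these, 52 were called higher and 0 lower, a direction that the filter favours. For 133 genes no DPI library reached 1 TPM, so these passed through the DMSO libraries alone, where the filter favours falls. They include 1 member each of the chemokine, HIF target, contractile and riboflavin lists below.

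DPI blocks enzymes that carry electrons on a flavin cofactor. It is best known as an inhibitor of NADPH oxidases, which make superoxide on purpose, and of nitric oxide synthases, and it also acts on complex I, the flavin-containing entry point of the mitochondrial respiratory chain. It is therefore a single agent that touches several redox systems at once. The title of the study asks which routes to stress resistance run through NRF2, the transcription factor that switches on antioxidant and detoxification genes.

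All 9 libraries came from cells of the line CCG-HTA-1, of the mixed UMHet3 stock, at passage 4, from mice that were 5 to 8 weeks old at collection. The cells were cultured in glucose-rich medium lacking pyruvate, at ambient oxygen, and RNA was taken 48 hours after the compound or DMSO went on. The labels give no dose. The same conditions apply to the 3 other compounds used below, Antimycin A, Dihydrorotenone and BerberineA, with 3 libraries each, except that the donor age reads 8 to 11 weeks for Dihydrorotenone replicate 1. Every library is a culture of 1 cell line, so p-values measure the spread between cultures or libraries and not between animals. Library numbers run consecutively within each group, so library order and treatment cannot be told apart.

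The 9 libraries were alike in breadth. Each held 12569 to 12700 genes at 1 TPM or more, and the deposited values of a library added up to 934444 to 937134. The 20 most abundant genes held 16.86% to 17.14% of the deposited TPM under DPI and 18.34% to 19.26% under DMSO. TPM keeps no record of read number, so the depth behind each value is unknown. DMSO replicate 6 stood apart in interferon-stimulated genes, with a mean log2(TPM + 1) over that list of 4.32, whereas the other 5 DMSO libraries lay between 4.63 and 4.80. Counts of the interferon lists are given below with and without it.

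All 15 fibroblast markers were tested. Together they summed to 11610 to 12150 TPM under DPI and 12990 to 14690 TPM under DMSO. The labelled cell type was thus borne out by its markers in every library, although 7 of the 15 were called lower under DPI and 3 higher. Cartilage and bone markers summed to 302.5 to 320.9 TPM under DPI and 314.3 to 349.4 TPM under DMSO, with 1 lower of 6 tested. Of the 10 markers each of skeletal muscle and of keratinocytes 9, and of the 9 endothelial markers 7, were below 1 TPM in every library. Melanocyte and Schwann cell markers summed to 51.8 to 56.8 TPM under DPI and 37.1 to 45.4 TPM under DMSO, with Mlana and Mitf higher of 4 tested and Tyrp1 at 0 throughout. Adipocyte markers summed to 13.7 to 15.4 TPM and 20.6 to 31.6 TPM, with Fabp4 lower of 2 tested and Lep, Plin1, Cidec and Cfd at 0 throughout. Macrophage and leukocyte markers were present at a low level and differed between the groups, with a summed level of 91.9 to 106 TPM under DPI and 169 to 232 TPM under DMSO. Among the 7 of 11 that were tested, 4 fell and none rose, and Cd3e, which defines T cells, was at 0 in all 9 libraries. Lyz2, the lysozyme of myeloid cells, read 68.9, 61.4 and 58.9 TPM under DPI against a DMSO range of 129 to 180 TPM (log2 fold change -1.30 ± 0.09, SE). Adgre1, the macrophage surface protein F4/80, fell by 0.74 on the log2 scale. In bulk RNA, fewer cells of a type and less RNA per cell cannot be told apart. The part of these cells in the results that follow was not tested.

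DPI moved a wide set of genes by small amounts and a narrow set by large ones. By limma on log2(TPM + 1), with all 30 libraries in the fit and Benjamini-Hochberg adjustment over the 12954 genes, 3477 genes (26.8%) passed an adjusted p of 0.05. Of these, 1882 rose (14.5% of tested genes) and 1595 fell (12.3%). The median size of a called change was 0.31 on the log2 scale, and 138 genes changed at least 2-fold, of which 96 rose and 42 fell. The 3 DPI libraries lay entirely outside the range of the 6 DMSO libraries for 3289 genes (25.4%). The share of rises among the called genes was 54.1%. It was 50% with median-ratio scaling, 47.7% with quantile-normalized values and 46.2% when values were rescaled without the 20 most abundant genes. Rescaling over nuclear protein-coding genes moved it the other way, to 59.6%. Counts for each gene group below are to be read against 14.5% and 12.3%.

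Genes are named here where they averaged 5 TPM or more in the higher group, carry a gene symbol that is not of a predicted gene and did not overlap between groups. Under that rule 13 of the 15 largest rises belonged to lists of genes that interferons switch on or signal through, or to the chemokines, as the plot of the named genes by library shows. Predicted genes outside the rule, such as Gm8815 (3.33) and Gm10800 (-3.76), changed by more. Interferons are secreted alarm proteins. Their receptors activate transcription factors, which bind a short repeat in gene promoters called the interferon-stimulated response element and raise antiviral genes. Of these 15 rises, Ifit3b, Ifit3, Rsad2, Ifi44l, Oas2, Mx1, Cxcl10 and Oas1g belong to the list of interferon-stimulated antiviral genes, Tgtp1 and Tgtp2 to the interferon-inducible GTPases, Cxcl9 and Cxcl11 to the chemokines and Irf7 to the interferon signalling list. Phf11b and Sct, the latter encoding the gut hormone secretin, belong to none of the lists.

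**Figure D1:**
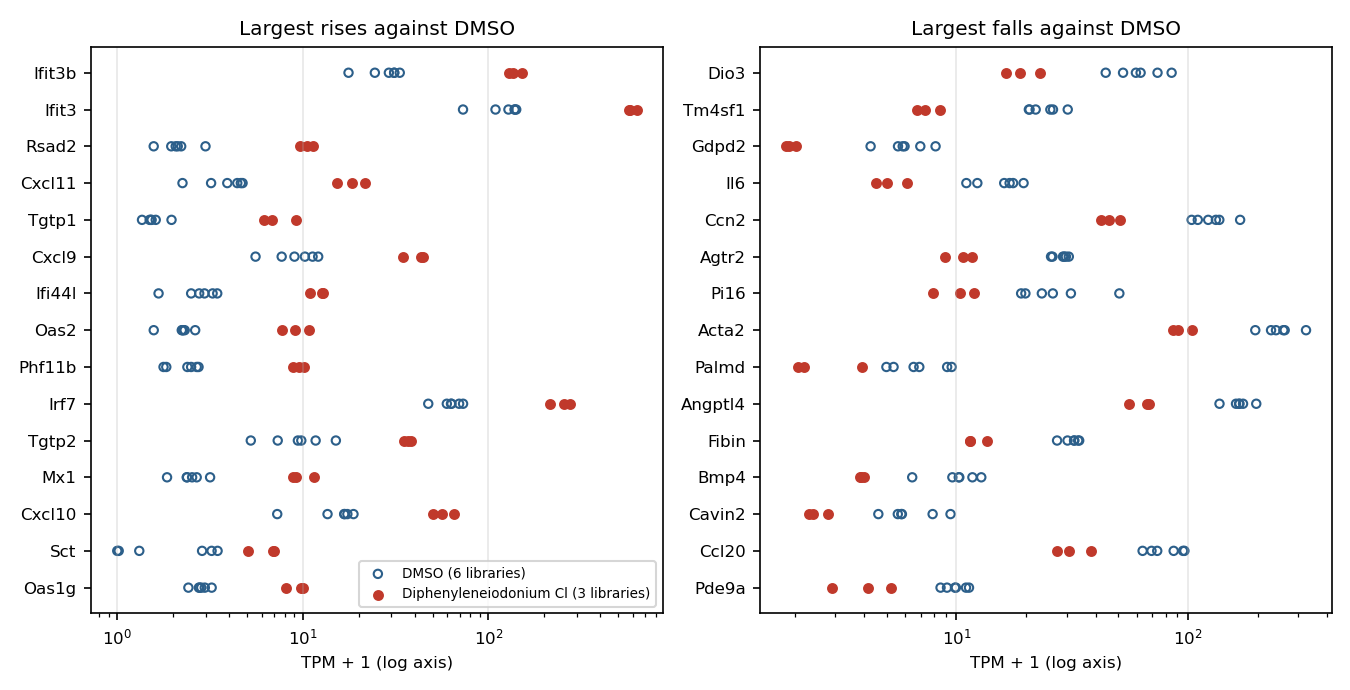
TPM + 1 on a log axis in each of 3 DPI libraries (filled red) and 6 DMSO libraries (open blue) for the 15 genes with the largest rise (left) and the 15 with the largest fall (right). In all 30 genes the DPI libraries lie outside the DMSO range, as the rule for naming them requires, and Ifit3b shows a log2 fold change of 2.35 and Dio3 one of -1.68.

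Rsad2, which encodes the antiviral enzyme viperin, read 8.61, 10.4 and 9.56 TPM under DPI and 0.572, 1.09 and 1.99 TPM as the lowest, median and highest of the DMSO libraries. The lowest DPI library was thus above every DMSO library. The log2 fold change was 2.31 ± 0.15 (SE, limma adjusted p = 6.12e-11). Ifit3, which encodes an adaptor of antiviral signalling, read 571, 629 and 575 TPM under DPI against 71.9, 132 and 140 TPM in DMSO (lowest, median, highest), a log2 fold change of 2.32 ± 0.18. Its neighbour Ifit3b read 128, 151 and 134 TPM against 16.6 to 32.3 TPM. These are close copies. Of the 31-base words in the transcripts of Ifit3, 61.8% also occur in those of another gene, and for Ifit3b the share was 55.3%, so the split of reads between the pair is uncertain, although both moved the same way.

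Irf7, the transcription factor that amplifies interferon production, read 215, 273 and 255 TPM under DPI against 46.4 to 72.0 TPM in DMSO, with a log2 fold change of 1.99 ± 0.13. Bst2, which encodes tetherin, a protein that holds budding viruses on the cell surface, rose from a DMSO range of 228 to 332 TPM to 867, 935 and 879 TPM. Ly6e, a small membrane protein, was among the most abundant members and read 1955, 2266 and 2158 TPM against 826 to 1156 TPM. For each of these genes no DPI library came near the DMSO range.

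Across the list of interferon-stimulated antiviral genes, 59 of 60 were tested, 53 rose and 2 fell, with a median log2 fold change of 1.04, where the median over all 12954 genes was 0.02. The 3 DPI libraries lay above all 6 DMSO libraries for 53 members. The 2 that fell were Ifitm1 and Ifitm2, which encode membrane proteins that restrict virus entry. Of the 31-base words of Ifitm2, 55.5% also occur in another gene, so its own value is uncertain. Ifitm1 read 29.0, 27.8 and 35.4 TPM under DPI against 46.0 to 74.6 TPM in DMSO (log2 fold change -1.05 ± 0.12). Without DMSO replicate 6 the list held 53 rises and 2 falls with a median of 0.96, so the count did not rest on the library that stood apart. Epsti1 and Oas3 were tested only because the DPI libraries reached 1 TPM.

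Interferon-inducible GTPases, which attack the membranes around intracellular microbes, rose in 14 of 15 tested members, with a median of 1.12 and no fall, and in 14 without DMSO replicate 6. Tgtp1, Gvin1 and Gbp8 passed the filter only with the help of the DPI libraries, and Tgtp1 and Gvin1 are among the rises, a direction that the filter favours. Irgm1, a regulator of the family, read 152, 162 and 151 TPM under DPI against 42.4 to 60.8 TPM. Tgtp1 read 5.79, 5.18 and 8.15 TPM against 0.360 to 0.961 TPM, and Tgtp2 read 36.1, 37.1 and 34.0 TPM against 4.24 to 14.1 TPM. These 2 share most of their sequence (84.4% and 90.5% of 31-base words also occur elsewhere), so their values are uncertain individually. For Gvin1 the share was 99.7%, so its own value is uncertain too.

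Antigen presentation displays peptides to T cells on class I or class II molecules. Of 25 tested genes of this list, 23 rose and none fell, with a median of 0.69, and 21 rose without DMSO replicate 6. H2-Eb1, a class II gene among the 23, passed the filter only with the help of the DPI libraries. It lost the call when any 1 DPI library was left out. Psmb9, a subunit of the immunoproteasome, read 62.7, 56.5 and 66.4 TPM against 22 to 34.4 TPM (log2 fold change 1.13 ± 0.10). Tap1, a subunit of the peptide transporter TAP, read 49.7, 72.1 and 61.0 TPM against 24.1 to 34.0 TPM. H2-K1, a classical class I heavy chain, read 1596, 1789 and 1795 TPM against 889 to 1130 TPM, and B2m, the shared light chain, 5780, 6106 and 5793 TPM against 3710 to 4780 TPM. The class I genes share sequence (22.8% of 31-base words for H2-K1, 67.4% for H2-T22), so values of single copies are less certain than the direction of the family.

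Among sensors of foreign or misplaced nucleic acid, 13 of 25 rose and 1 fell, and without DMSO replicate 6 the rises were 12. Zbp1, a sensor of Z-form nucleic acid, read 108, 116 and 112 TPM under DPI against 27.1 to 44.8 TPM (log2 fold change 1.49 ± 0.13). The RNA sensors Dhx58, Ifih1 and Ddx58 rose by 1.11, 0.93 and 0.69, and Tmem173, which encodes the DNA-sensing adaptor STING, fell by 0.35. In the list of ligands, receptors and transducers, 5 of 24 rose, among them Irf7, Stat2 (0.91), Irf5 (0.65) and Irf9 (0.57), and 2 fell, Ifngr1 (-0.53) and Socs3 (-0.37). Irf5 was at 0.33 and lost the call without DPI replicate 2, and Socs3 lost it without DPI replicate 1 or 2. Without DMSO replicate 6 this list held 5 rises and 3 falls. The ligands themselves were at the edge of detection. Ifnb1 did not exceed 0.0953 TPM in any of the 9 libraries, and Ifna1 and Ifna4 were listed at 0 in all of them, so no change in a ligand could be read from these values.

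The promoters of the 3 interferon-stimulated genes with the largest rise whose upstream 250 bases hold the core of the response element are printed here, because this element is how interferon signalling is known to reach such genes. Sequences are from the RefSeq promoter table on GRCm38.p6, 5′ to 3′ on the gene's strand, and end at the base before the RefSeq start. Capitals mark the core, GAAANNGAAA on either strand.

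Ifit3 (chr19:34583279-34583528, plus strand): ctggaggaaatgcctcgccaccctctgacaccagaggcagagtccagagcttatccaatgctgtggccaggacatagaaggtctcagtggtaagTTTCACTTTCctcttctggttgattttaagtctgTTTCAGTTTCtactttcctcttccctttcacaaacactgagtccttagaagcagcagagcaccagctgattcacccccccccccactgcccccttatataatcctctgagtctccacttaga
Ifit3b (chr19:34607707-34607956, plus strand): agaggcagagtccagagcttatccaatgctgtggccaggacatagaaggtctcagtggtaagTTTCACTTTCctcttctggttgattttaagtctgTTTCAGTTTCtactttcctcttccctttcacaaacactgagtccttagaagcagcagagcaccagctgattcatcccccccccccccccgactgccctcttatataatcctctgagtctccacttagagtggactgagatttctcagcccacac
Rsad2 (chr12:26456453-26456702, minus strand): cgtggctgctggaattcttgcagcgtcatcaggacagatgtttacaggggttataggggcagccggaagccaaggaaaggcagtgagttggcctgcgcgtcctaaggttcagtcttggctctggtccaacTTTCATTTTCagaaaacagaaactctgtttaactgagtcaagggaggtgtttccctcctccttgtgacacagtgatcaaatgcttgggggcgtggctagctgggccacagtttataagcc
Tgtp1 (chr11:48992247-48992496, minus strand): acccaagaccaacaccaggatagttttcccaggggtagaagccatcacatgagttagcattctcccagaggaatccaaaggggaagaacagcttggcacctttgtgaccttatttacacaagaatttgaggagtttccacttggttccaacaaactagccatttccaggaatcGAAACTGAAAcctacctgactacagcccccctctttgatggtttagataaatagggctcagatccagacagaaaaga

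Ifit3 and Ifit3b each hold 2 cores, starting 156 and 122 bases before the start in Ifit3 and 188 and 154 in Ifit3b, inside an identical run of 169 bases. Rsad2 holds 1 core, 120 bases before the start. The GTPase promoter, Tgtp1, was added after its values were seen and holds 1 core, 77 bases before the start. The core occurred in the upstream 250 bases of 3.46% of the 27025 genes with a promoter in the table, in 21 of 47 interferon-stimulated antiviral genes (44.7%), in 10 of 11 GTPases (90.9%) and in 3 of 20 antigen presentation genes (15%). A second element, TTCNNNGAA, known as the gamma-activated site, was in 8.13% of all promoters, in 4 of 47 antiviral genes and in 6 of 11 GTPases. A match describes letters in this window and says nothing of binding.

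**Figure D2:**
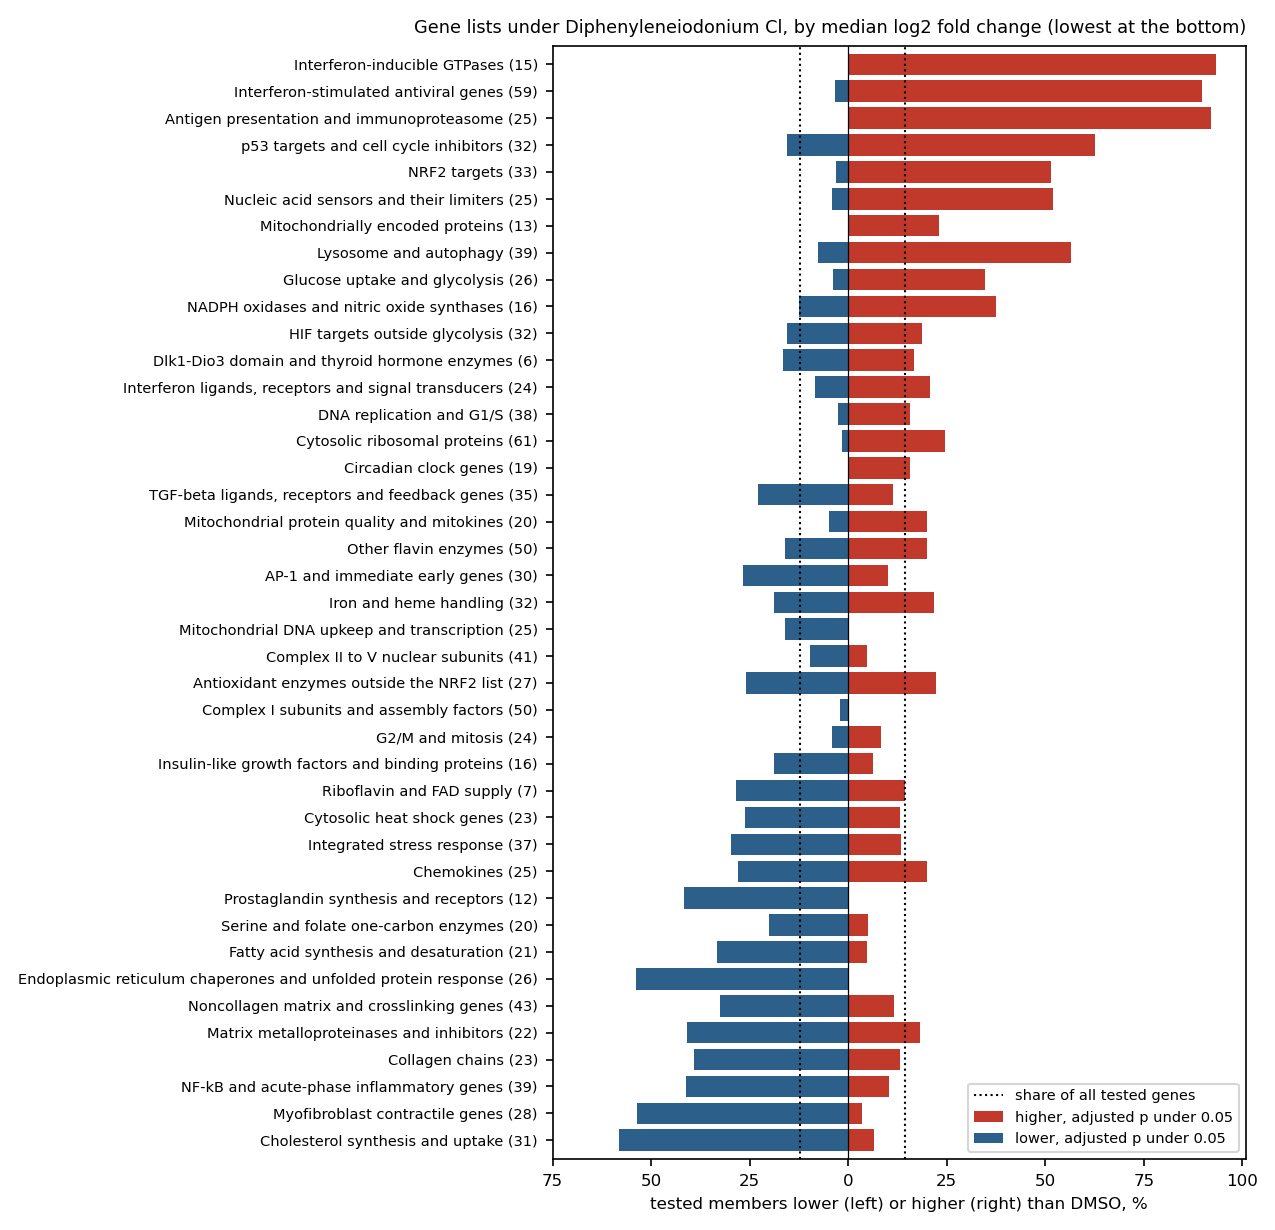
Share of the tested members of each of 41 gene lists that were higher (red, right) or lower (blue, left) under DPI than under DMSO at an adjusted p under 0.05, with the number tested in brackets and the share among all tested genes as dotted lines (14.5% and 12.3%). Interferon-inducible GTPases, antiviral genes and antigen presentation genes have the highest medians, and contractile and cholesterol genes the lowest.

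Among inflammatory genes outside the interferon lists, more were called lower than higher, and many were not called. Chemokines draw white cells into tissue, and the 3 that interferon induces and that bind the receptor CXCR3 rose, namely Cxcl9, Cxcl10 and Cxcl11. Cxcl10 read 55.3, 64.1 and 49.4 TPM under DPI against 6.28 to 17.7 TPM in DMSO. Ccl5 (log2 fold change 0.62 ± 0.09) and Ccl8 (0.62) also rose. Against these 5 rises, 7 of 25 tested chemokines fell, among them the neutrophil attractants Cxcl1 (-0.57) and Cxcl5 (-0.34) and the T cell attractant Ccl20. Cxcl5 lost the call when any 1 DPI library was left out. Ccl20 read 37.3, 29.8 and 26.2 TPM under DPI and 62.7 to 95.5 TPM under DMSO, a log2 fold change of -1.33 ± 0.13.

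Genes driven by NF-kB and the acute-phase response fell in 16 of 39 tested members and rose in 4, with a median of -0.22. Il6, a cytokine that spreads the acute-phase signal, read 3.48, 5.13 and 4.01 TPM under DPI and 10.0, 15.5 and 18.5 TPM as the lowest, median and highest of DMSO (log2 fold change -1.56 ± 0.24, adjusted p = 1.47e-05). Saa3, an acute-phase protein and one of the most abundant transcripts of these cells, read 19741, 18392 and 21067 TPM against 29576 to 34957 TPM, and its fall lost the call after quantile normalization (-0.12). Hp (haptoglobin, -1.20), Il33 (-0.93), Lcn2 (-0.60) and the inhibitor Nfkbia (-0.32) fell as well. The 4 that rose were Nos2, Il1rl1, Tlr2 and Tnfaip2. In each case the macrophage and leukocyte markers fell alongside, as given above, and their part in these falls was not tested. Of 12 genes of prostaglandin synthesis and response, 5 fell and none rose, including Ptgs2, the inducible cyclooxygenase (-0.52), and Hpgd, the enzyme that breaks prostaglandins down (-1.23).

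More genes were called lower than higher in the contractile programme of the myofibroblast, the activated fibroblast that pulls on and deposits matrix. Among the named largest falls only Acta2 belongs to this list. Of 28 tested members, 15 fell and 1, Myh9, rose, with a median of -0.25. Myh9 lost the call without DPI replicate 1 or 3 and without DMSO replicate 6. Acta2, which encodes the smooth muscle actin that defines myofibroblasts (chr19:34241090-34255590 in GRCm38), read 89.2, 85.1 and 103 TPM under DPI and 194, 248 and 323 TPM as the lowest, median and highest of DMSO. The groups did not overlap, and the log2 fold change was -1.41 ± 0.14 (adjusted p = 2.84e-08). Myl9, a myosin light chain, read 48.7, 49.3 and 50.4 TPM against 89.9 to 136 TPM (-1.09 ± 0.10), and Tagln, an actin-binding protein, 74.6, 75.7 and 79.0 TPM against 111 to 164 TPM. Lmod1 (-0.92), Cnn2 (-0.77), Cnn1 (-0.72) and Actg2 (-1.03) fell, whereas the regulators Srf, Mrtfa and Mrtfb did not pass the test. Of 9 markers of smooth muscle cells and pericytes, 4 were tested. Rgs5, Cnn1 and Acta2 fell and Notch3 rose, and Myh11, which defines smooth muscle, stayed below 1 TPM in all 9 libraries. The part of such cells in these falls was not tested.

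Many contractile genes carry a CArG box, the site of serum response factor, and the promoter of Myl9 is printed to show one, with the box in capitals. It was chosen after its values were seen, and the source and orientation are as above.

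Myl9 (chr2:156775214-156775463, plus strand): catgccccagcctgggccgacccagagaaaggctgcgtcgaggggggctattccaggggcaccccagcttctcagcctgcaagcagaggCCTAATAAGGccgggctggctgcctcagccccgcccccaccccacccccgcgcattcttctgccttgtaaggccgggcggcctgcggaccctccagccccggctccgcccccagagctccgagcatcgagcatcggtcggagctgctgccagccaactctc

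The box lies 161 bases before the start. On either strand it occurred upstream of 6 of 26 contractile genes (23.1%) and of 1.62% of all 27025 genes. The core GGAATG, which the YAP partners TEAD1 to TEAD4 bind, was upstream of 10 of the 26 (38.5%) and of 14.4% of all genes.

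Connective tissue growth factors that fibroblasts make when activated fell with the contractile genes. Ccn2 read 41.0, 44.5 and 49.6 TPM under DPI against 103 to 167 TPM in DMSO (log2 fold change -1.47 ± 0.19). Its relative Ccn1 read 76.1, 130 and 126 TPM against 156 to 263 TPM. Bmp4, a ligand of the same superfamily as TGF-beta, read 2.83, 2.98 and 2.86 TPM against 5.44 to 11.8 TPM. In the whole list of TGF-beta ligands, receptors and feedback genes, 8 of 35 fell and 4 rose, with a median of 0.02, and Tgfb1, Tgfbr1 and Tgfbr2 did not pass the test. Without DMSO replicate 4 the list held 7 rises.

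More matrix genes were called lower than higher in each list. Of 23 collagen chains, 9 fell and 3 rose, with a median of -0.17. Col3a1, a fibrillar collagen, read 1832, 1785 and 1941 TPM against 2486 to 3027 TPM, Col11a1 fell by 1.20 and Col12a1 fell by 0.66. The basement membrane chains Col4a1 (0.23), Col4a2 (0.25) and Col18a1 (0.47) rose. Col4a1 and Col4a2 lost the call without DPI replicate 2 or 3 or DMSO replicate 1 or 5. Col4a2 lost it without DPI replicate 1 as well. Col1a1 and Col1a2, the chains of type I collagen, did not pass the test. Of 43 noncollagen matrix genes, 14 fell and 5 rose, with a median of -0.16. The small proteoglycans Lum (-0.88) and Dcn (-0.80) were among the falls. Of 22 matrix metalloproteinases and inhibitors, 9 fell and 4 rose, with a median of -0.165. Among the 4 was Mmp15, which passed the filter only with the help of the DPI libraries, a direction that the filter favours. Mmp3, a stromelysin, fell by 0.60 and Timp1, an inhibitor, fell by 0.51, while Mmp11 read 758, 699 and 759 TPM against 213 to 477 TPM (1.18 ± 0.17).

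**Figure D3:**
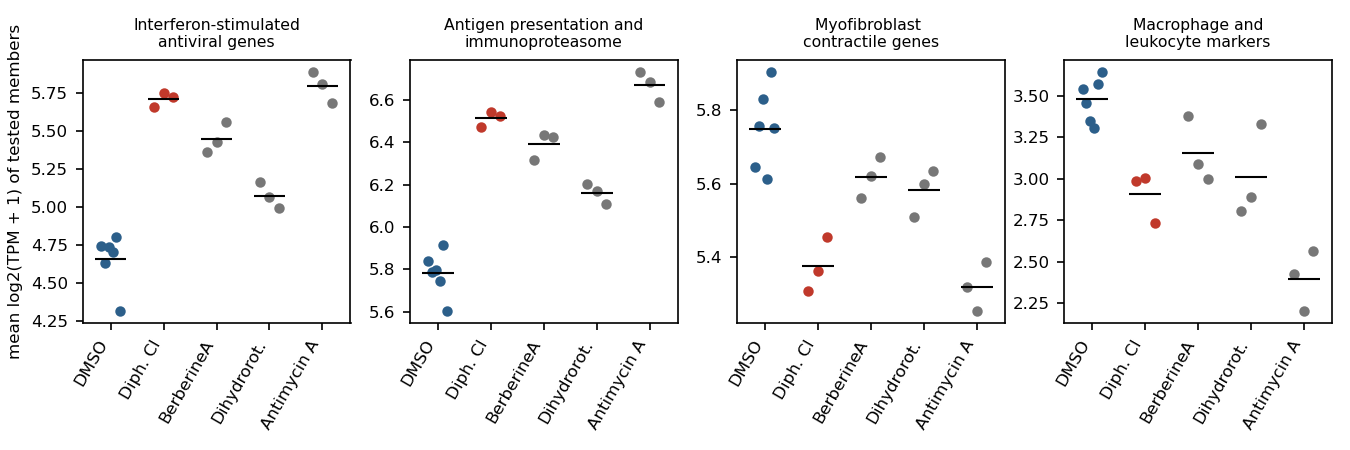
Mean log2(TPM + 1) over the tested members of 4 lists in each library (points), with the group mean as a line, for DMSO (blue), DPI (red, shown as Diph. Cl) and 3 other compounds (grey). The antiviral list lies between 5.66 and 5.76 in the DPI libraries and between 4.32 and 4.80 in the DMSO libraries.

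The other large falls came from scattered functions. Dio3, the enzyme that inactivates thyroid hormone (chr12:110279068-110281097), read 15.4, 17.8 and 21.9 TPM under DPI and 43.1 to 84.0 TPM under DMSO, a log2 fold change of -1.68 ± 0.15. Dio2, which activates the hormone, moved oppositely, at 36.9, 37.5 and 36.7 TPM against 14.7 to 22.6 TPM (1.11 ± 0.09). Tm4sf1, a membrane protein of the tetraspanin superfamily, read 7.51, 6.30 and 5.78 TPM against 19.5 to 29.2 TPM, and Agtr2, an angiotensin receptor, 10.7, 9.71 and 7.91 TPM against 24.6 to 29.6 TPM. Angptl4, an inhibitor of lipoprotein lipase, fell by 1.40 and Pi16, a marker of a fibroblast subset in skin, fell by 1.43. Gdpd2, Palmd, Fibin, Cavin2 and Pde9a complete the named falls, at -1.65, -1.40, -1.38, -1.34 and -1.32.

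Cholesterol synthesis and uptake had the lowest median of the 41 lists, at -0.35, with 18 of 31 tested genes lower and 2 higher. The pathway builds sterols from acetyl units and is raised by SREBP2 when sterols run short. Hmgcs1, its first committed enzyme, read 35.6, 32.5 and 32.8 TPM under DPI against 48.9 to 65.4 TPM in DMSO (-0.70 ± 0.07, adjusted p = 3.78e-08). Idi1 (-0.67) and Fdps (-0.65), which make isoprenoid units, fell, and Ebp (0.43) and the exporter Abca1 (0.32) rose, the latter not without DPI replicate 1 or 3. The flavin enzyme Sqle acts in this pathway and fell by 0.48. Among fatty acid genes 7 of 21 fell, led by the desaturases Scd1 (-0.77) and Fads2 (-0.63). A sterol regulatory element, TCACNCCAC on either strand, was upstream of 1 of 23 cholesterol genes, Hmgcs1, and of 1.22% of all genes.

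Genes tied to the enzymes that DPI is known to block did not move together. The first list holds NADPH oxidases and nitric oxide synthases, with their regulators and enzymes of arginine and cofactor metabolism. Its counts are thus not of DPI targets alone. Of its 16 tested genes, 6 rose and 2 fell. Nos2, the inducible nitric oxide synthase, read 90.8, 85.2 and 111 TPM against 44.0 to 76.0 TPM (0.61 ± 0.22, adjusted p = 0.041), and it lost the call when any 1 DPI library was left out. Cybb, the catalytic subunit of the phagocyte oxidase, read 54.6, 52.5 and 53 TPM against 33.7 to 52.7 TPM, so the groups overlapped, although the fit called a rise of 0.36, which was lost when any 1 DPI library was left out. Cyba, its partner, rose by 0.30, and Nox4, the oxidase typical of fibroblasts, read 7.70, 8.42 and 7.14 TPM against 6.89 to 8.82 TPM. Without DPI replicate 1 or 2 the count of rises in this list was 3. The list of other flavin enzymes also holds Fads1, a desaturase that is not one. Of its 50 tested genes, 10 rose and 8 fell, with 5 falls without DPI replicate 3. The rises were led by Nqo1, Maoa (monoamine oxidase, 0.65) and Xdh (xanthine dehydrogenase, 0.65). In the riboflavin and FAD supply, Flad1, which makes FAD, rose by 0.34. Enpp1 (-0.50) lost its call when any 1 DPI library was left out and Enpp3 (-0.35) without DPI replicate 1, which left no fall in that list.

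NRF2 targets rose in 17 of 33 tested members, with a median of 0.24. Nqo1, a quinone reductase and a standard readout of the factor, read 150, 142 and 145 TPM under DPI against 79.4, 88.9 and 108 TPM as the lowest, median and highest of DMSO (0.68 ± 0.07, adjusted p = 4.74e-08). Gsta4, a glutathione transferase for lipid aldehydes, read 232, 226 and 215 TPM against 121 to 182 TPM (0.62 ± 0.08). Gclm (0.42) and Gclc (0.25), the subunits that set glutathione synthesis, and Ftl1, the ferritin light chain (0.53), rose. Of the 31-base words of Ftl1, 64.1% also occur in another gene, so its own value is uncertain. Hmox1 (0.13 ± 0.08, adjusted p = 0.259) and the cystine carrier Slc7a11 (0.19 ± 0.10, adjusted p = 0.173) did not pass, and Akr1b8 fell by 0.29, a call lost without DPI replicate 2. Aldh3a1, an aldehyde dehydrogenase outside the list, read 86.8, 90.9 and 112 TPM against 29.8 to 52.2 TPM (1.39 ± 0.14). The core of the antioxidant response element, TGACNNNGC, was upstream of 7 of 29 NRF2 targets (24.1%) and of 11.5% of all genes. Of 27 antioxidant enzymes outside the list, 6 rose and 7 fell. Without DPI replicate 2 the rises were 3, and without DPI replicates 1, 2 and 3 the falls were 4, 3 and 4. Sod1 (0.18) was among the rises and Sod3 (-0.42) among the falls.

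Nuclear genes of the respiratory chain were little changed at the RNA level. Of 50 genes for complex I subunits and assembly factors, none rose and 1 fell, Ndufs8 (-0.19). It lost the call without DPI replicate 1 or 2 or DMSO replicate 2, 5 or 6. Of 41 nuclear genes for complexes II to V, 2 were called higher and 4 lower. The higher count was 0 without DPI replicate 1 or 2 or DMSO replicate 3, 1 without DMSO replicate 5, 4 without DMSO replicate 1 or 6 and 0 under median-ratio scaling, and the lower count was 2 without DPI replicate 1. Among the 13 proteins encoded in the mitochondrial genome, mt-Co2 (0.32), mt-Co1 (0.20) and mt-Nd2 (0.25) rose. Each lost the call without at least 1 DPI library, and the number called ranged from 1 to 5 over the processing alternatives. Together the 13 genes summed to 50830 to 54090 TPM under DPI and 43260 to 50430 TPM under DMSO, without overlap. Of the 13, 12 had a positive log2 fold change, with a median of 0.165. Mitochondrial RNA took 5.43% to 5.79% of the deposited TPM under DPI and 4.62% to 5.39% under DMSO. Of 20 genes of mitochondrial protein quality control and secreted mitochondrial signals, 4 rose and 1 fell, with a median of 0.01. Chchd10, a protein of the intermembrane space, read 26.8, 29.9 and 27.7 TPM against 5.87 to 13.6 TPM (1.70 ± 0.17), and Gdf15, a secreted stress cytokine, 13.0, 14.4 and 13.3 TPM against 3.87 to 5.92 TPM (1.27 ± 0.09).

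Genes of the integrated stress response, which ATF4 drives when translation is throttled, fell in 11 of 37 tested members and rose in 5. Pycr1, a proline synthesis enzyme, read 5.45, 7.25 and 7.81 TPM against 13.9 to 19.3 TPM (-1.22 ± 0.12), and Mthfd2 (-0.61) and Chac1 (-0.36) fell, the latter losing the call when any 1 DPI library was left out. Ddit3, which encodes CHOP, rose by 0.54, Vldlr by 0.73 and Nupr1 by 0.36, and Atf4, Trib3 and Asns did not pass. Without DPI replicate 1 or 2 the list held 7 falls. Chaperones and sensors of the endoplasmic reticulum fell in 14 of 26 tested members and none rose. Hspa5, the main chaperone BiP, read 492, 481 and 516 TPM against 655 to 724 TPM (-0.46 ± 0.05), and Xbp1 fell by 0.39.

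Targets of p53 and inhibitors of the cell cycle rose in 20 of 32 tested members and fell in 5, with a median of 0.27. Gadd45a, a DNA damage response gene, read 782, 752 and 753 TPM against 441 to 642 TPM (0.56 ± 0.08), and Cdkn1a, the inhibitor p21, 554, 579 and 614 TPM against 397 to 465 TPM (0.42 ± 0.05). Mdm2 (0.39) and Ccng1 (0.40) rose, and Trp53 itself was at -0.13, a call lost without DPI replicate 1 or 2 or DMSO replicate 2. Without DPI replicate 1, 2 or 3 the list held 2, 2 or 3 falls. Of 38 tested genes of the DNA replication list, 6 rose and 1 fell. Among 24 tested genes of the mitosis list 2 rose and 1 fell. These shares lay near or below those of all tested genes.

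Lysosomal and autophagy genes rose in 22 of 39 tested members and fell in 3, with a median of 0.16. Gla, an alpha-galactosidase, read 48.0, 41.0 and 41.1 TPM against 21.6 to 30.0 TPM (0.82 ± 0.10), and Neu1 (0.63) and the collagen-cutting protease Ctsk (0.62) rose. Genes of glucose uptake and glycolysis rose in 9 of 26 members. The glucose transporter Slc2a1 read 151, 157 and 164 TPM against 88.4 to 128 TPM (0.57 ± 0.09), and Eno2 (0.52) and Hk2 (0.50) rose. Of 32 HIF targets outside glycolysis 6 were higher and 5 lower, shares near those of all tested genes. Vegfa (0.44) and Bnip3 (0.36) rose, while Adm fell by 0.97. Of the 31-base words of Bnip3, 57.0% also occur in another gene, so its own value is uncertain. For cytosolic ribosomal proteins the count of rises, 15 of 61, was 3 under median-ratio scaling, 6 and 7 without DPI replicates 1 and 2, and 9 without DMSO replicate 3.

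Direct contrasts with 3 other compounds, fitted in the same model over the same 12954 genes, show where DPI differed from them. Antimycin A blocks complex III and Dihydrorotenone complex I of the respiratory chain, and BerberineA is given as the labels spell it. Doses are not in the labels, so the contrasts are between treatments as applied. Each treatment was also compared with the same DMSO libraries, and no overlap between those comparisons is given. DPI differed from Antimycin A in 820 genes (6.33%), of which 330 were higher under DPI (2.55%) and 490 lower (3.78%). It differed from Dihydrorotenone in 515 genes (3.98%), 436 higher (3.37%) and 79 lower (0.61%), and from BerberineA in 86 genes (0.664%), 52 higher (0.401%) and 34 lower (0.262%).

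These 3 counts depended on single libraries. Against Antimycin A the count was 473 without DPI replicate 2, 438 without DPI replicate 3, 490 without Antimycin A replicate 1 and 503 without Antimycin A replicate 2. Against Dihydrorotenone it was 310, 260 and 264 without DPI replicates 1, 2 and 3, and 238 and 322 without Dihydrorotenone replicates 1 and 3. Against BerberineA it was 51, 27 and 31 without DPI replicates 1, 2 and 3, and 31 and 33 without BerberineA replicates 1 and 2. The share of higher genes also moved with scaling. It was 40.2% against Antimycin A and 51.9%, 53.3% and 56.3% under median-ratio scaling, quantile normalization and rescaling over nuclear protein-coding genes. Against Dihydrorotenone it was 84.7%, and 66.2% and 63.4% under the first 2 of these. Against BerberineA it was 60.5%, and 73.8% under median-ratio scaling. There it was 53.3% under rescaling over nuclear protein-coding genes and 43.1% with array weights.

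**Figure D4:**
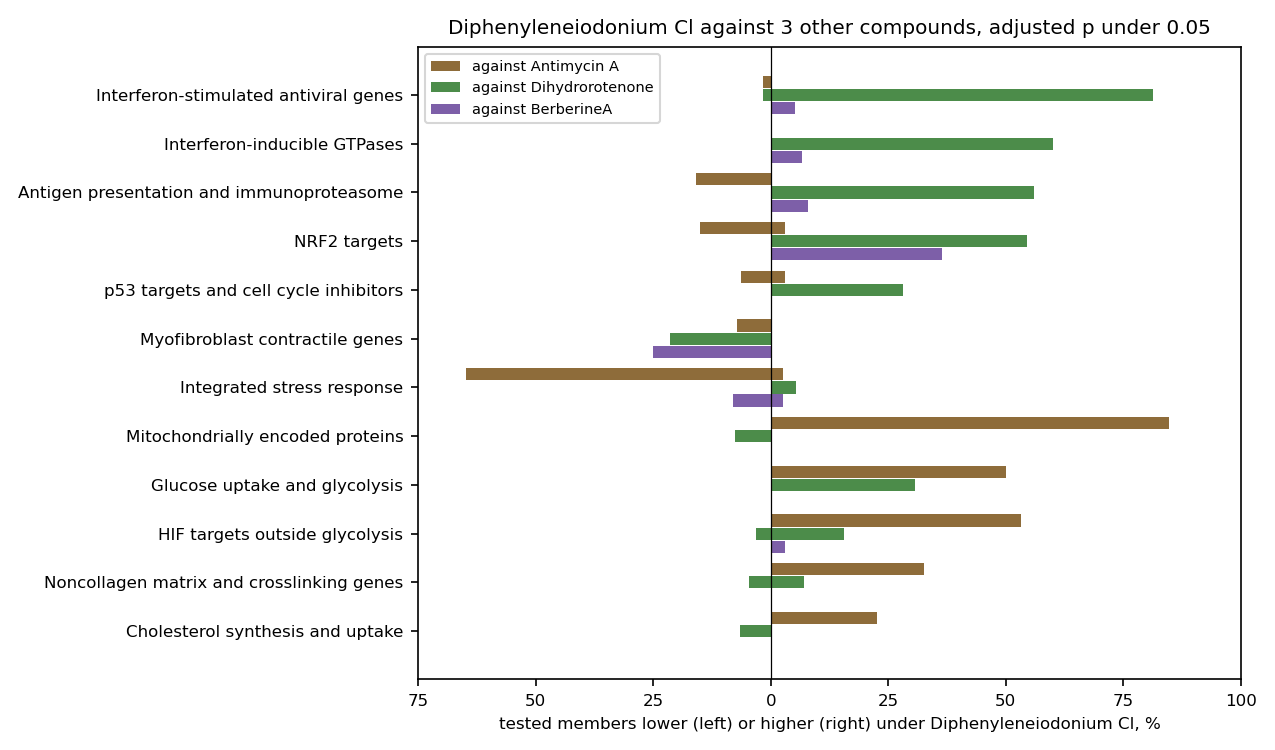
Share of tested members of 12 lists that were higher (right) or lower (left) under DPI than under Antimycin A (brown), Dihydrorotenone (green) or BerberineA (purple) at an adjusted p under 0.05. Antiviral genes stand out against Dihydrorotenone (48 of 59 higher) and integrated stress response genes against Antimycin A (24 of 37 lower).

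Against Antimycin A, of 59 antiviral genes none was higher and 1, Slfn2 (-0.43), was lower, a call lost when any 1 DPI library or Antimycin A replicate 1 or 2 was left out. Rsad2 averaged 9.51 ± 0.87 TPM under DPI (SD, n = 3) and 12.1 TPM under Antimycin A, a difference of -0.31 on the log2 scale with an SE of 0.17 and an adjusted p of 0.339. Of 37 genes of the integrated stress response, 24 were lower under DPI and 1 was higher. Trib3, a pseudokinase that ATF4 induces, averaged 4.17 ± 0.36 TPM under DPI and 29.4 ± 1.51 TPM under Antimycin A (SD, n = 3 each), a difference of -2.56 ± 0.11 (limma adjusted p = 3.87e-14). Mthfd2 (-2.22 ± 0.17) and Chac1 (-2.16 ± 0.15) were lower by similar amounts, and Asns (-1.28) and Phgdh (-1.28), which act in asparagine and serine synthesis, were lower too.

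Of the 13 protein genes of the mitochondrial genome, 11 were higher under DPI. Cytochrome b, mt-Cytb, is the complex III subunit encoded there, and it averaged 3730 ± 95.8 TPM under DPI and 1698 ± 18.5 TPM under Antimycin A, a difference of 1.13 ± 0.07. Under DMSO the same gene spanned 3473 to 4273 TPM, a range that holds all 3 DPI libraries. HIF targets were higher under DPI in 17 of 32 members and glycolytic genes in 13 of 26, with Pdk1 (0.96) in both lists. Noncollagen matrix genes were higher in 14 of 43. Of 33 NRF2 targets, 1 was higher under DPI and 5 were lower, with a median of -0.08. Dio3 averaged 18.4 TPM under DPI and 5.49 TPM under Antimycin A, a difference of 1.58 ± 0.17. Ndufa4l2, higher by 1.11 ± 0.27, did not keep its call without Antimycin A replicate 2.

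Against Dihydrorotenone, of 59 antiviral genes 48 were higher under DPI and 1 lower, and of 15 GTPases 9 were higher, of 25 antigen presentation genes 14, and of 25 nucleic acid sensors 9. Rsad2 averaged 2.97 TPM under Dihydrorotenone, so that DPI was higher by 1.42 ± 0.17 (adjusted p = 2.74e-05). Ifi44l and Phf11b were higher by 1.35 and 1.29, and Irf7 by 1.0. NRF2 targets were higher in 18 of 33 members, led by Gclm (0.73), Slc7a11 (0.70), Nqo1 (0.65) and Gsta4 (0.64), and p53 targets in 9 of 32. Adh7, an alcohol dehydrogenase, read 43.2, 41.2 and 41.1 TPM under DPI and averaged 17.3 TPM under Dihydrorotenone, a difference of 1.23 ± 0.12. Acta2 was lower under DPI by 1.07, with 194 TPM under Dihydrorotenone, and Tm4sf1 was lower by 0.73. Ccn2, Ccn1 and Cbln1, at -0.94, -0.74 and -0.71, lost the call in 5, 6 and 7 of the processing alternatives.

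Against BerberineA 86 genes differed in the main fit and 1035 with array weights. In the main fit NRF2 targets were the largest group among the lists, with 12 of 33 higher under DPI and none lower. List counts in the direct contrasts were not repeated over the processing alternatives. Slc7a11 averaged 13.6 TPM under BerberineA and was higher under DPI by 0.64, Gsta4 by 0.55 and Nqo1 by 0.47 ± 0.08. Tfrc, the transferrin receptor, averaged 6.23 ± 0.47 TPM under DPI and 3.2 ± 0.25 TPM under BerberineA (SD, n = 3 each), a difference of 0.78 ± 0.12, and its DMSO range, 5.45 to 8.96 TPM, held all 3 DPI libraries. Contractile genes were lower under DPI in 7 of 28, led by Acta2 (-0.86 ± 0.16) and Actg2 (-0.84). Trib3 was lower by 1.0 ± 0.11. Of the antiviral genes 3 were higher, Oas2 (0.88), Oas1g (0.70) and Oas3 (0.55), along with the GTPase Tgtp1 (1.16). Oas1g lost the call when any 1 DPI or BerberineA library was left out, Oas3 without DPI replicate 2 or 3 or BerberineA replicate 1 or 2, and Oas2 without DPI replicate 2 or BerberineA replicate 2. Of the 10 genes with the largest differences, Trib3, Tfrc and Adh7 (0.72) kept their call in every alternative run, and the others lost it in at least 1. Acsf3 (2.09 ± 0.42) was among those, with 1.24 ± 1.27 TPM under BerberineA.

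**Figure D5:**
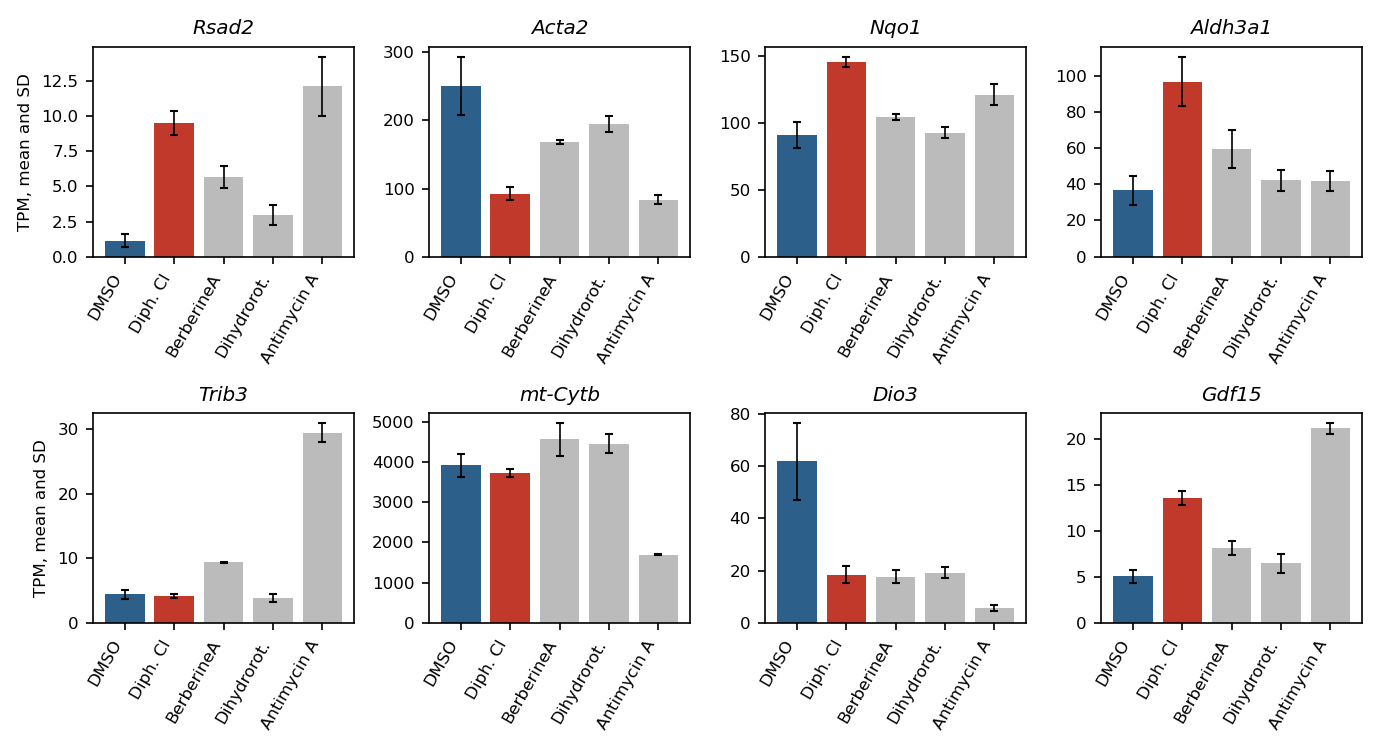
Mean TPM (bars) with SD (error bars) of 8 genes under DMSO (n = 6), DPI (shown as Diph. Cl), BerberineA, Dihydrorotenone and Antimycin A (n = 3 each). Trib3 and mt-Cytb set Antimycin A apart, with 29.4 and 1698 TPM, whereas Aldh3a1 is highest under DPI, at 96.6 TPM.

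Across the 3 contrasts, which share the DPI libraries, 20 genes passed the test in each. DPI was higher each time for 8 of them and lower each time for 3 (Mgst2, Rpp30 and Tpm4). The 8 were Aldh3a1, BC023105, Cdk2ap2, Fosl1, Nptx1, Nqo1, Tfrc and an identifier without a symbol whose 3 differences equal those of Cdk2ap2. These genes were singled out after their values were seen. Each of those with a symbol lost its call in at least 1 contrast when some single library was left out. Of the 31-base words of Fosl1, 54.5% also occur in another gene, so its own value is uncertain. Aldh3a1 was higher than under Antimycin A by 1.20 ± 0.16 (adjusted p = 2.75e-05), than under Dihydrorotenone by 1.18 (adjusted p = 0.000135) and than under BerberineA by 0.70 (adjusted p = 0.0429), where the call was lost when any 1 DPI library was left out. Nqo1 was higher by 0.27, 0.65 and 0.47 in the same order, and lost the call against Antimycin A when any 1 DPI library was left out. Gdf15 was lower than under Antimycin A by 0.61 and higher than under Dihydrorotenone and BerberineA by 0.97 and 0.67. The leukocyte marker Lyz2 was higher than under Antimycin A by 0.60 and lower than under Dihydrorotenone and BerberineA by 0.64 and 0.47, the last a call lost without DPI replicate 2 or 3 or BerberineA replicate 1 or 2, and its part in the other differences was not tested.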

How the data were processed

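RNA of cultured mouse tail fibroblasts was sequenced after ribosomal RNA depletion. The authors quantified reads with kallisto 0.43.1, with mm10 named as the build, per the submitters' processing notes, and summed to genes with tximport, per the series text. The deposited values are TPM, so read depth is unknown and no counting interval is given. The transcript index is not given in the sources used here. Gene positions and symbols come from the GENCODE annotation of GRCm38, which matched 29505 of 29861 genes (98.8%).

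Here 1 was added to each TPM value before the log2 transform, and limma 3.58.1 in R 4.3.3 was fitted to all 30 libraries with 1 mean per group, an intensity trend and Benjamini-Hochberg adjustment, with a threshold of 0.05. Fold changes are on that log2 scale, which understates the change of low genes. Errors are SE unless SD is named. The script was tested on simulated data. The labels give 6 DMSO libraries and the study's own text 5, and all 6 were used. Named genes are the 15 largest rises and 15 largest falls against DMSO, and 5 each way in a direct contrast, past the threshold, averaging 5 TPM or more where higher, with a named gene symbol and no overlap between groups, plus members of 41 gene lists and 9 marker lists. Of 1218 listed genes 1117 were tested, and 8 without a match were not analysed here. A few list members are not reported here by name. The comparison, the members and the lists were chosen with earlier results of these data known. Sequence sharing was counted as 31-base words of the annotated transcripts. Alternatives were other pseudocounts, filters, scalings, weights, sets of libraries and a replicate block.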

Additional observations from a re-analysis of the deposited data

Results flagged for a closer look

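A single DMSO library stood apart from the other 5 by Dixon's test for 18 of the 165 genes named above, a test that flags about 1 in 20 groups by chance. DMSO replicate 6 was lowest for Ly6e (826.2 TPM), Tap1 (24.07 TPM) and Zbp1 (27.14 TPM) and highest for Akr1b8 (37.45 TPM) and Gm10800 (258.3 TPM). DMSO replicate 4 was highest for Aldh3a1 (52.25 TPM), Bnip3 (263.3 TPM), Dio2 (22.62 TPM), Oas3 (0.7408 TPM), Slc7a11 (25.65 TPM) and Tgfbr1 (27.68 TPM), and lowest for Tmem173 (44.64 TPM). DMSO replicate 5 was highest for Gm8815 (14.33 TPM) and Idi1 (32.46 TPM). DMSO replicate 1 was highest for mt-Co2 (6030 TPM) and lowest for Socs3 (113.0 TPM) and Trib3 (3.051 TPM), and DMSO replicate 2 was highest for Ddit3 (97.04 TPM).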

How the results depend on the processing

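Against DMSO the count of called genes, 3477, ran from 2637 to 3584 when 1 library was left out, and was 2820 with only the 9 libraries in the fit, 2978 with DMSO replicates 1 to 3 and 2708 with DMSO replicates 4 to 6. Genes changed at least 2-fold numbered 234 with a pseudocount of 0.1 and 79 with a pseudocount of 5. With array weights the direct contrasts called 1651 genes against Antimycin A, 1032 against Dihydrorotenone and 1035 against BerberineA. The BerberineA count was 132 after quantile normalization and 34 with only the libraries of the contrast. When 1 library was left out, the counts ran from 438 to 576 against Antimycin A, from 238 to 355 against Dihydrorotenone and from 27 to 79 against BerberineA. The cause of these shifts was not tested. Same-numbered DPI and DMSO libraries did not deviate together (r = 0.0409, -0.01113 and 0.007202), so the numbers do not pair them. With a replicate block, in which DMSO replicates 4 to 6 have no DPI partner, the counts were 3087 against DMSO, 979, 677 and 146 in the direct contrasts. Of 150 named genes called against DMSO, 128 kept the call in every alternative, 22 lost it in at least 1, and none changed direction. The same held for 16 of 23 against Antimycin A, 18 of 26 against Dihydrorotenone and 7 of 25 against BerberineA. Among genes that were not called, the log2 fold change of Col1a1 was 0.0030 with DMSO replicates 4 to 6, and that of Mrtfa, -0.04 with all libraries, was 0.070 there, 0.047 without DPI replicate 1 and -0.15 without DPI replicate 3.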
